A study of Mus musculus with 6 samples.

Results

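The miR-29 family is a small group of microRNAs (miRNAs) that share a seed and are made from 4 hairpins in the mouse genome. Its loci were taken from the deposited table by mature identifier, as the rows of miR-29a-3p, miR-29b-3p and miR-29c-3p, and by position, as the opposite arm of each hairpin on the same strand within 80 bases. This gave 8 of 2110 loci, 4 of the 3p arm and 4 of the 5p arm, on chromosomes 1 and 6. Small RNA had been sequenced from extracellular vesicles, named exosomes in the labels, that were collected from muscle of old mice (3 libraries) and young mice (3 libraries). Strain, exact age, sex, any treatment, the muscle and the isolation method are not stated in the labels. Nor do the labels tie each library to its own animal, and the p-values therefore cover the variation among libraries, which may be technical.

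miRNAs guide a silencing complex to messenger RNAs that pair with the seed, bases 2 to 8 of the mature strand. The miR-29 family is known for repressing messenger RNAs of the extracellular matrix, collagens, elastin and fibrillin among them, and is repressed by the profibrotic signal TGF-beta, for which it is described as antifibrotic. In dystrophic mouse muscle its loss has been tied to fibrosis. The 3p strand is the main guide strand of every miR-29 hairpin, and the 5p strand is the one usually degraded.

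The mature 3p sequences are shown because their shared seed defines the family and their few differences separate the members. In RefSeq (GRCm38.p6, the assembly also called mm10) all 7 mature sequences of the family were found at the coordinates of the deposited loci. Capitals mark the seed, and each sequence runs 5′ to 3′.
miR-29a-3p: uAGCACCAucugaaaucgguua
miR-29b-3p: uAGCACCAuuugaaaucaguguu
miR-29c-3p: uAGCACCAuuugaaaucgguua
The seed AGCACCA was held by 3 of 1674 distinct mature mouse sequences in the RefSeq table, which are these 3. Counting from the 5′ end, miR-29a-3p and miR-29c-3p differ at 1 of 22 positions (C10U, with the base of miR-29a-3p first). miR-29b-3p differs from miR-29c-3p at 3 of 22 positions (A18G, G21U and U22A, with the base of miR-29b-3p first), all of them in its 3′ part, and has 23 bases. In human cells, a short motif at that 3′ end is known to direct miR-29b into the nucleus.

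The opposite arms are shown because they do not share the family's seed and because they tell the miR-29b hairpins apart, which the 3p strand cannot.
miR-29a-5p: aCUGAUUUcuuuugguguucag
miR-29b-1-5p: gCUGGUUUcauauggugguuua
miR-29b-2-5p: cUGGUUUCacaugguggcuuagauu
miR-29c-5p: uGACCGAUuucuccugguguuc
The 4 seeds of these strands differ from each other, and that of miR-29b-2-5p is also the seed of miR-6338. The annotated start of miR-29b-2-5p lies 1 base further along than that of miR-29b-1-5p, and with that shift the 2 strands differ at 2 of 21 positions (U11C and U19C, counted along miR-29b-1-5p, whose base comes first).

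The hairpins form 2 clusters in mm10. On chromosome 6, minus strand, Mir29a holds miR-29a-3p (MIMAT0000535, chr6:31062673-31062694) and miR-29a-5p (MIMAT0004631, chr6:31062711-31062732). Mir29b-1 lies 275 bases away with a copy of miR-29b-3p (MIMAT0000127_1, chr6:31063025-31063047) and miR-29b-1-5p (MIMAT0004523, chr6:31063067-31063088). Mir29b-1 shares 2 bases with the end of the long noncoding RNA gene Gm27019 in GENCODE release M21, and Mir29a lies in no other gene of that annotation. On chromosome 1, plus strand, Mir29b-2 holds miR-29b-2-5p (MIMAT0017063, chr1:195037050-195037074) and the other copy of miR-29b-3p (MIMAT0000127, chr1:195037091-195037113). Mir29c follows after 426 bases with miR-29c-5p (MIMAT0004632, chr1:195037562-195037583) and miR-29c-3p (MIMAT0000536, chr1:195037600-195037621). Both chromosome 1 hairpins lie in an exon of the noncoding transcript A330023F24Rik and opposite to a UTR exon of Cd46. The authors' counting used no strand option, so that reads from either strand counted at these loci. None of the 8 loci overlapped another counted locus.

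The libraries held 904892 to 1417733 counts in old and 1459826 to 1706396 in young vesicles. Striated muscle miRNAs took 4.61% to 9.91% of the counts in old and 4.95% to 6.26% in young libraries. Of their 6 tested loci, 4 passed as higher in old (median log2 fold change 0.86), beside 12 of all 347 loci tested (3.46%). These 4 loci hold miR-1a-3p, miR-499-5p and both copies of miR-133a-3p. The most abundant miRNA of the list, miR-206-3p, did not pass (log2 fold change 0.17, edgeR adjusted p = 0.731). Red blood cell miRNAs took 4.12% to 4.52% in old and 4.03% to 4.36% in young libraries. Those of fibroblasts and smooth muscle took 3.81% to 4.55% in old and 3.11% to 3.36% in young libraries. Those of leukocytes took 0.0882% to 0.108% in old and 0.111% to 0.138% in young libraries. Neither of these pairs of ranges overlapped, but the members of each list differed in direction. By level, the groups did not overlap at 94 of all 347 loci tested (27.1%). Of the 8 fibroblast and smooth muscle loci tested, 5 had positive log2 fold changes, and only miR-143-3p passed (0.70). Both copies of miR-199a-5p (-0.49 and -0.47) and miR-214-3p (-0.405) were negative. Of the 4 leukocyte loci tested, 3 were positive, and only miR-155-5p, the most abundant of the 4 in both groups, passed, as lower in old (-0.81). The part of these differences in the miR-29 values was not tested. Endothelial miR-126a and the liver miRNA miR-122-5p were listed at 0 at loci that overlap another, where this counting leaves reads unassigned. The same held for miR-142a-3p of the leukocyte list and for the Mir1a-2 copy of miR-1a-3p. The leukocyte and striated muscle shares therefore lack these loci. Old replicate 1 stood apart, with 322900 CPM (read counts brought to a common library size with the TMM method) of the dominant miR-21a-5p. The other 5 libraries had 483800 to 567700 CPM. Old replicate 1 also held the fewest counts, 904892, and the most miR-206-3p, at 79190 CPM against 39250 to 55400 in the others. In vesicle RNA from tissue, fewer vesicles of a cell type and less miRNA per vesicle cannot be told apart, and CPM are relative to the other counted miRNAs.

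The mean summed level of the family was close in vesicles of old and of young muscle. For the sum only shares of counts were tested, and that test could not reach 0.05 with 3 against 3 libraries. The 3p loci together had 4172, 4709 and 5019 CPM in old replicates 1, 2 and 3, against 4863, 4457 and 3978 CPM in young replicates 1, 2 and 3. The groups overlapped, with means of 4633 ± 428 CPM in old and 4433 ± 443 CPM in young (SD, n = 3 each). As a share of all counts the 3p loci took 0.463% ± 0.00503 in old and 0.442% ± 0.0386 in young (SD, n = 3 each). The difference was larger than the SD of the old libraries and smaller than that of the young ones. These shares overlapped between the groups (two-sided exact permutation p = 0.4, where 0.1 is the smallest that 3 against 3 libraries allow). The direction of that difference turned when miR-21a-5p was left out of the total, at 0.870% in old and 0.904% in young (exact permutation p = 0.7).

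Of the 8 loci, 7 passed the filter on low counts and entered the quasi-likelihood test of edgeR, and none of the 7 passed an adjusted p of 0.05. Over all 347 loci tested, 15 passed, or 4.32%, with 12 higher in old (3.46%) and 3 lower (0.865%). The test adjusted its p-values over those 347 loci by the Benjamini-Hochberg method. At an unadjusted p under 0.05, 1 of the 7 stood beside 78 of 347 loci (22.5%), and DESeq2 also called none of the 7. The log2 fold changes, old over young, were positive at 3 and negative at 4 loci, with a median of -0.04. Both copies of miR-29b-3p, which are 1 measurement, are among the negative loci. The median over all loci tested was 0.04.

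**Figure D1:**
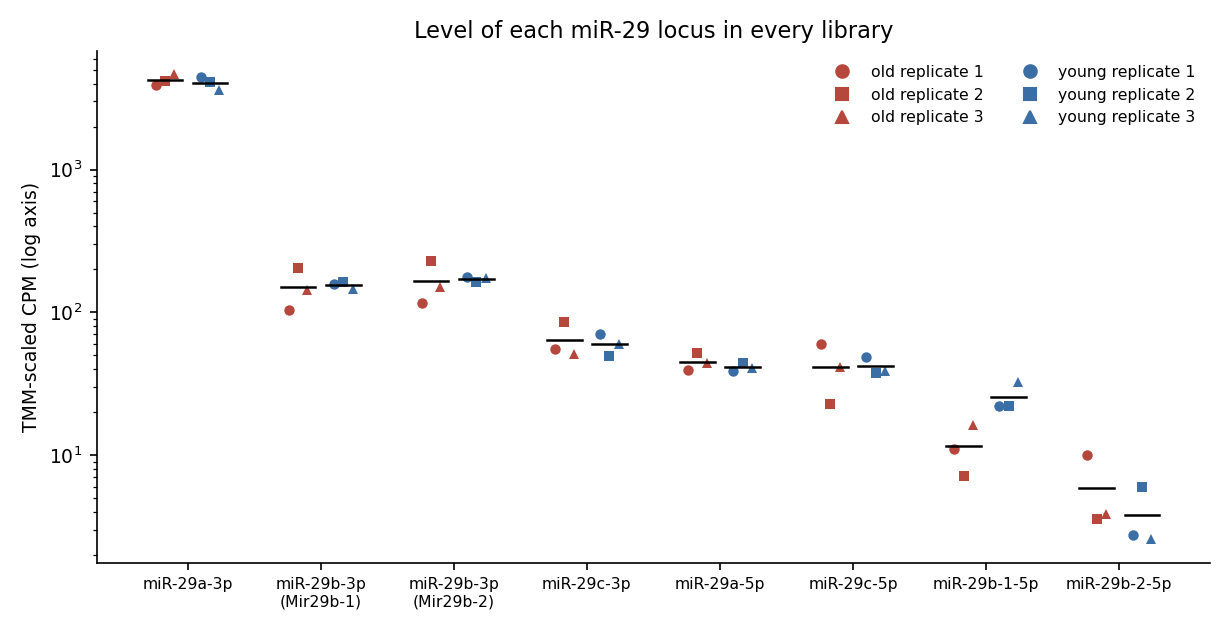
TMM-scaled CPM (log axis) of each of the 8 miR-29 loci in the 3 old (left, red) and 3 young (right, blue) libraries, with black lines at the group means. miR-29a-3p lies between 3596 and 4673 CPM in every library, and miR-29b-1-5p is the locus whose 3 old points, 7.16 to 16.3 CPM, all lie below its 3 young points, 22.0 to 32.7 CPM.

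miR-29a-3p was the main member, the 31st most abundant of the 347 tested loci by mean CPM. It had 3897, 4190 and 4673 CPM in old replicates 1, 2 and 3, against 4456, 4083 and 3596 CPM in young replicates 1, 2 and 3. Old replicate 3 was the highest and young replicate 3 the lowest library, and the groups overlapped. The log2 fold change was 0.07 ± 0.16 (SE, edgeR adjusted p = 0.855), and its 95% interval ran from 0.829 to 1.33 times the young level. The sign of this small value turned without old replicate 3 or young replicate 3 (-0.01 in both cases).

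miR-29b-3p comes from both clusters with the same sequence, so that its 2 loci are 1 measurement split over 2 positions. The counts at Mir29b-2 were 1.00 to 1.19 times those at Mir29b-1 in the 6 libraries, and a count at either copy need not stand for the activity of that hairpin. With the copies summed, miR-29b-3p had 217.5, 431 and 294 CPM in old replicates 1, 2 and 3, against 343, 327 and 318.5 CPM in young replicates 1, 2 and 3. Old replicate 1 was the lowest and old replicate 2 the highest of all 6 libraries, while the young libraries lay close together. The SD was 108 CPM around a mean of 314 in old, against 12.4 CPM around 330 in young (n = 3 each). The log2 fold change of the sum was -0.06 ± 0.22 (SE, edgeR adjusted p = 0.893), where 16 of 317 mature miRNAs passed with copies summed (5.05%). Leaving out old replicate 1 gave 0.17, and leaving out old replicate 2 gave -0.36.

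miR-29c-3p, the other member of the chromosome 1 cluster, had 55.4, 85.2 and 51.2 CPM in old replicates 1, 2 and 3, against 70.3, 49.3 and 59.6 CPM in young replicates 1, 2 and 3. Old replicate 2 was again the highest library, and the groups overlapped. The log2 fold change was 0.11 ± 0.27 (SE, edgeR adjusted p = 0.855), with a 95% interval of 0.729 to 1.59 times the young level, and it was -0.16 without old replicate 2. The counts behind it were 55 to 119 in old and 82 to 102 in young libraries.

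**Figure D2:**
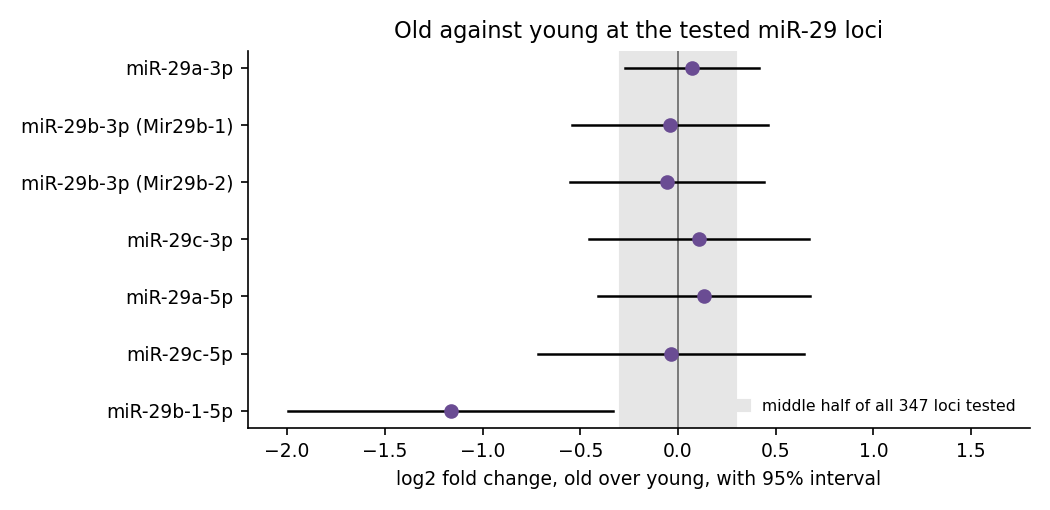
Log2 fold change, old over young, of the 7 tested miR-29 loci (points) with 95% intervals from edgeR's quasi-likelihood fit (lines), beside the range of the middle 50% of all 347 loci tested (grey, -0.30 to 0.30). The intervals of 6 loci include 0, and that of miR-29b-1-5p runs from -1.99 to -0.33 before adjustment for the number of loci.

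The make-up of the 3p pool was dominated by miR-29a-3p in every library. It took 93.4%, 89.0% and 93.1% of the 3p counts of the family in old replicates 1, 2 and 3, against 91.6%, 91.6% and 90.4% in young replicates 1, 2 and 3. miR-29b-3p took 5.26%, 9.21% and 5.86% in the old libraries, against 6.93%, 7.30% and 8.09% in the young ones. In old replicate 2 its share had a 95% exact binomial interval of 8.52% to 9.93%, above those of the other old libraries, whose highest bound was 6.46%. miR-29c-3p took 1.02% to 1.81% in old and 1.11% to 1.499% in young libraries. Such intervals cover counting error, and shares of different sequences also depend on how well each is captured in a small RNA library.

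Ratios between the members were compared because they need no scaling between libraries. The log2 ratio of miR-29b-3p to miR-29a-3p was -3.80 ± 0.47 in old and -3.62 ± 0.12 in young (SD, n = 3 each, exact permutation p = 0.5, 0.75 adjusted over 3 ratios). That of miR-29b-3p to miR-29c-3p was 2.29 ± 0.27 in old and 2.47 ± 0.23 in young (exact permutation p = 0.5, 0.75 adjusted). For miR-29c-3p to miR-29a-3p the ratio was -6.09 ± 0.45 in old and -6.09 ± 0.25 in young (exact permutation p = 1). No ratio separated the groups, and the spread between old libraries was the larger in all 3. miR-29c-3p, which is 1 base away from the far more abundant miR-29a-3p, had counts equal to 1.42%, 2.03% and 1.10% of those of miR-29a-3p in old replicates 1, 2 and 3, against 1.58%, 1.21% and 1.66% in young replicates 1, 2 and 3. Whether reads of miR-29a-3p with a changed base entered this count was not tested.

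The 5p arms were far less abundant than miR-29a-3p, and 1 of them showed the lowest ratio of old to young level in the family. miR-29b-1-5p had 11.1, 7.16 and 16.3 CPM in old replicates 1, 2 and 3, against 22.0, 22.2 and 32.7 CPM in young replicates 1, 2 and 3. All old libraries lay below all young libraries, as at 94 of all 347 tested loci (27.1%), 45 of them (13%) in this direction. The other 6 tested miR-29 loci had groups that overlapped. The level in old was 0.447 times that in young (95% interval 0.251 to 0.795), a log2 fold change of -1.16 ± 0.39 (SE) that did not pass the test (edgeR adjusted p = 0.112, unadjusted p = 0.00904 by the same quasi-likelihood test, rank 28 of 347). Without old replicate 3, the old library with the highest level, it passed (log2 fold change -1.54, edgeR adjusted p = 0.0345), and it did not pass in the fits that left out any other library (edgeR adjusted p = 0.0545 to 0.309). The value rested on 11, 10 and 21 counts in old replicates 1, 2 and 3, against 32, 37 and 51 counts in young replicates 1, 2 and 3.

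The hairpin of this arm is shown because both of its strands were counted. Capitals mark miR-29b-1-5p (first) and miR-29b-3p (second) within Mir29b-1 (chr6:31063023-31063093, minus strand, 71 bases).
Mir29b-1: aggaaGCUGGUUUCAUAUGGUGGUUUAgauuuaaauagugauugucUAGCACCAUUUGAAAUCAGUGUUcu
The groups overlapped for its 3p strand. At the Mir29b-1 copy it had 104, 206 and 143.5 CPM in old replicates 1, 2 and 3, against 159, 162 and 147 CPM in young replicates 1, 2 and 3 (log2 fold change -0.04 ± 0.24, SE, edgeR adjusted p = 0.944). miR-29b-2-5p, from the chromosome 1 hairpin, had 10, 5 and 5 counts in old replicates 1, 2 and 3, against 4, 10 and 4 counts in young replicates 1, 2 and 3. It fell below the filter, was not tested and overlapped between groups. miR-29b-1-5p made up 52.4%, 66.7% and 80.8% of the 2 miR-29b 5p arms in old replicates 1, 2 and 3, against 88.9%, 78.7% and 92.7% in young replicates 1, 2 and 3. Old replicate 3 lay above young replicate 2, and the 95% exact binomial intervals of the old libraries were wide, as for old replicate 1 from 29.8% to 74.3%.

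miR-29a-5p had 39.3, 51.5 and 44.2 CPM in old replicates 1, 2 and 3, against 38.6, 43.9 and 41.0 CPM in young replicates 1, 2 and 3 (log2 fold change 0.13 ± 0.26, SE, edgeR adjusted p = 0.817). miR-29c-5p had 60.5, 22.9 and 41.1 CPM in old replicates 1, 2 and 3, against 48.9, 37.9 and 39.1 CPM in young replicates 1, 2 and 3 (log2 fold change -0.04 ± 0.32, SE, edgeR adjusted p = 0.960). For miR-29c-5p, old replicates 1 and 2 were the highest and the lowest of the 6 libraries, and its log2 fold change was 0.27 without old replicate 2.

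**Figure D3:**
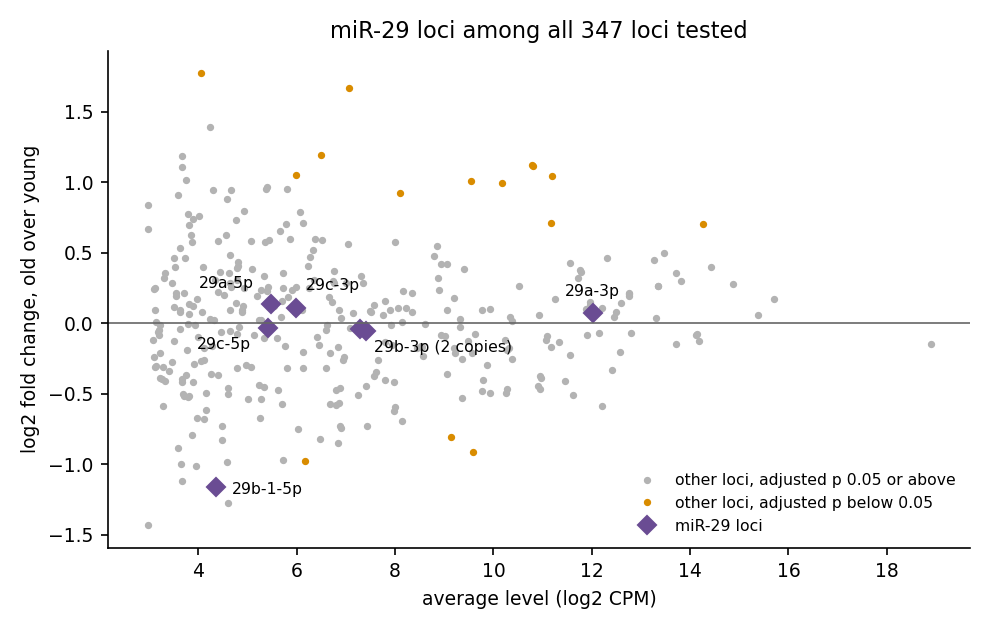
Log2 fold change, old over young, against average level (log2 CPM) of all 347 loci tested, with the 7 tested miR-29 loci as purple diamonds and the 15 loci past the test in orange. The miR-29 loci other than miR-29b-1-5p have log2 fold changes from -0.06 to 0.13, and miR-29b-1-5p at -1.16 is among the loci of low level.

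Arm use, the percentage of a hairpin's counts on its 5p strand, differed widely between the hairpins. At Mir29a the 5p arm took 0.998%, 1.22% and 0.937% in old replicates 1, 2 and 3, against 0.858%, 1.06% and 1.13% in young replicates 1, 2 and 3. At Mir29c it took 52.2%, 21.2% and 44.5% in the old libraries, against 41.0%, 43.5% and 39.6% in the young ones. The 3p strand of Mir29c had more counts than its 5p strand in 5 libraries, by the widest margin in old replicate 2 (119 against 32). In old replicate 1 the 5p strand had slightly more (60 against 55). In each of the 6 libraries the 95% exact binomial intervals of these hairpins lay apart. The lowest bound at Mir29c was 14.97% and the highest at Mir29a 1.53%. These intervals cover counting error, and arm percentages also depend on how well each strand is captured in a small RNA library.

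The old and young groups overlapped in arm use at Mir29a, at Mir29c and at both miR-29b hairpins together, in tests that could not reach 0.05 with 3 against 3 libraries. The mean at Mir29a was 1.05% ± 0.146 in old and 1.02% ± 0.141 in young (SD, n = 3 each, exact permutation p = 0.8). At Mir29c it was 39.3% ± 16.1 in old and 41.4% ± 1.94 in young (SD, n = 3 each, exact permutation p = 1). The old spread came with old replicate 2, whose 21.2% (95% exact binomial interval 14.97% to 28.6%) lay below the intervals of all 5 other libraries, the lowest of which began at 31.8%. That library had 32 counts of miR-29c-5p and 119 of miR-29c-3p, the lowest and the highest counts of these strands in the series. Both miR-29b hairpins together had 5.87% ± 3.22 in old and 8.24% ± 1.52 in young (SD, n = 3 each, exact permutation p = 0.4), and the p-values of the 3 arm comparisons were all 1 after adjustment.

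Taking each miR-29b hairpin with the 3p counts of its own copy gave 9.65%, 3.36% and 10.2% for miR-29b-1-5p in old replicates 1, 2 and 3, against 12.2%, 12.1% and 18.2% in young replicates 1, 2 and 3. These groups did not overlap, with means of 7.73% ± 3.80 in old and 14.1% ± 3.53 in young (SD, n = 3 each). By level, 94 of 347 tested loci (27.1%) did not overlap, and for arm use at other hairpins this was not computed. The percentages rest on the same low counts of miR-29b-1-5p as its level, so that their separation is no second observation. The exact permutation p was 0.1, the smallest possible, and 0.2 when adjusted over the 2 own-copy comparisons, apart from the arm comparisons above. For miR-29b-2-5p the means were 4.02% ± 3.48 in old and 2.18% ± 1.198 in young (SD, n = 3 each, exact permutation p = 0.5). Since the reads of miR-29b-3p cannot be assigned to a hairpin, these percentages depend on how the aligner split them.

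**Figure D4:**
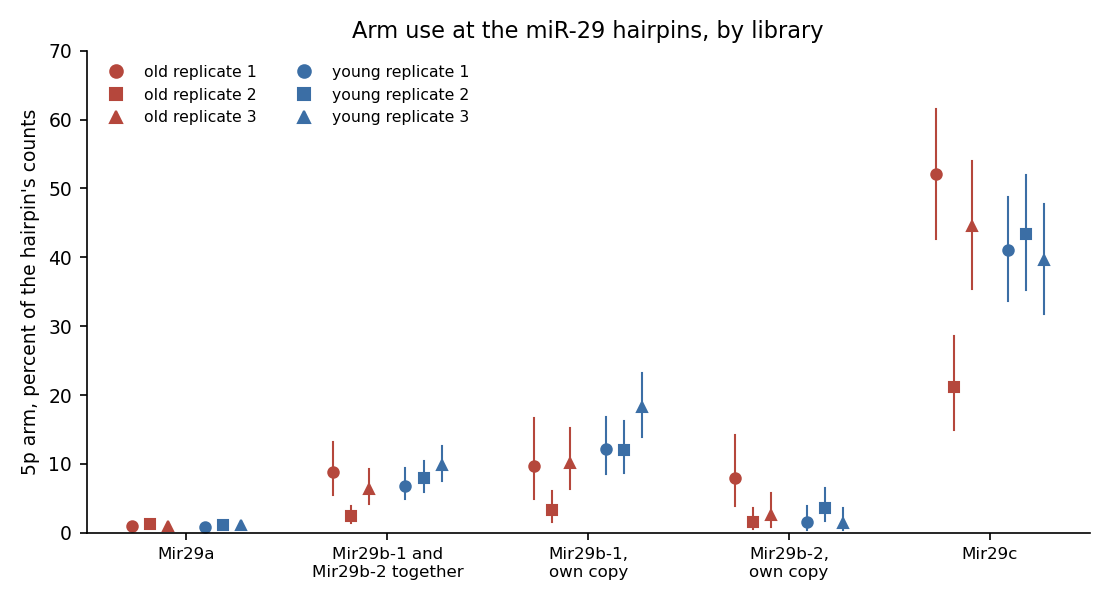
Percentage of counts on the 5p arm at each miR-29 hairpin in the 3 old (left, red) and 3 young (right, blue) libraries, with 95% exact binomial intervals as lines. Mir29a lies near 1% in all libraries and Mir29c between 21.2% and 52.2%, with old replicate 2 lowest.

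The miRNAs most like each 3p member in pattern were found by the root mean square difference of log2 CPM over the 6 libraries, each centred on its own mean, among 198 other mature miRNAs with copies summed. For miR-29a-3p they were miR-192-5p (difference 0.063), miR-99a-5p (0.064) and miR-100-5p (0.068), where the median over the 198 was 0.31. For miR-29b-3p they were miR-25-3p (0.17), miR-130a-3p (0.18) and miR-153-3p (0.18), with a median of 0.40. For miR-29c-3p they were miR-34b-5p (0.15), miR-22-5p (0.16) and miR-30a-5p (0.19), with a median of 0.395. Within the family the differences were larger than these, at 0.29 for miR-29a-3p with miR-29b-3p, 0.29 for miR-29a-3p with miR-29c-3p and 0.22 for miR-29b-3p with miR-29c-3p. These family differences lay below the medians over the 198 other miRNAs. The family offers 2 pairs per member against 198 candidates outside it, so that a closer match outside the family says little, and all miRNAs share the depth and composition of these 6 libraries.

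A list of 15 other miRNAs studied in fibrosis had 21 loci, of which 17 were tested, for 12 miRNAs. Of these 17 loci, 2 rose, 1 fell and 14 did not pass, the 3 calls standing for 2 mature miRNAs, beside 15 of all 347 loci (4.32%). The median log2 fold change was -0.15 (0.03 without old replicate 1), beside 0.04 over all loci tested. The list was chosen with earlier results of these data known. It joins miRNAs with different roles in fibrosis, so that its median has no direction in fibrosis. Both loci that rose hold miR-133a-3p, a striated muscle miRNA known to repress the matrix-inducing factor Ctgf. Its copy at Mir133a-2 had 2756, 1873 and 2692 CPM in old replicates 1, 2 and 3, against 1223, 1087 and 1075 CPM in young replicates 1, 2 and 3 (log2 fold change 1.11 ± 0.18, SE, edgeR adjusted p = 0.0009), and the Mir133a-1 copy had the same mature sequence and a value of 1.12.

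The locus of the list that fell was miR-155-5p, which activated immune cells induce, with 433, 405 and 382 CPM in old replicates 1, 2 and 3, against 645.5, 650.4 and 840.3 CPM in young replicates 1, 2 and 3 (log2 fold change -0.81 ± 0.18, SE, edgeR adjusted p = 0.0135). The other 3 tested loci of the leukocyte list, miR-223-3p, miR-142a-5p and miR-150-5p, had log2 fold changes of 0.11, 0.80 and 0.09 that did not pass. The most abundant loci of the list did not pass. miR-21a-5p, known to promote cardiac fibrosis in mice, had a log2 fold change of -0.15 ± 0.20 (SE, edgeR adjusted p = 0.769). Both copies of miR-26a-5p had 0.26 ± 0.16 (SE, edgeR adjusted p = 0.368 and 0.364), and miR-34a-5p, which p53 induces, had 0.45 ± 0.17 (SE, edgeR adjusted p = 0.139). The locus of miR-101a-3p and that of miR-200b-3p fell below the filter, and both loci of miR-24-3p overlap another locus and were listed at 0.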

How the data were processed

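The deposited values were unnormalized read counts over mature miRNA loci, made by the authors with featureCounts 2.0.6 without options for strand, multi-mapping or overlapping features, per the file headers. Reads were aligned with BWA to mm10, per the submitters' processing notes; neither its version nor any trimming is stated. Names came from RefSeq by position within 4 bases (1734 of 2110 loci) or from the GENCODE M21 miRNA gene (2096 in all). Counts of all 6 libraries, grouped by title, were tested with edgeR 4.0.16 (R 4.3.3) after filterByExpr (minimum count 10, minimum total 15) and TMM scaling, old over young, with Benjamini-Hochberg adjustment over 347 loci and a threshold of 0.05. Standard errors came from the coefficient and its F statistic. Shares and ratios had two-sided exact permutation tests over libraries (scipy 1.17.1). The members, the lists and the tests were chosen with earlier results of these data known. Every miR-29 locus was named, with the 4 most abundant and all passing loci of the fibrosis list, and the 3 miRNAs most like each 3p member among those with a mean log2 CPM of at least 5. Alternatives were other scalings and filters, DESeq2 1.42.0, a replicate block, copies summed and each library left out. The test was checked on simulated counts.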

Additional observations from a re-analysis of the deposited data

How the results depend on the processing

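Of 88 member log2 fold changes recomputed under alternatives, with both copies of miR-29b-3p counted, 76 kept direction and side of the threshold. The exceptions, 11 changes of sign of at most 0.27 in size and the pass of miR-29b-1-5p without old replicate 3, came from leaving out a library. No locus of the family passed under another scaling, DESeq2, either filter or summed copies, and miR-29b-1-5p was not tested under the filter of 50 counts in 3 libraries. With 1 library left out, 0 to 1 miR-29 loci passed and 5 to 45 of all loci did (45, 5 and 29 without old replicates 1, 2 and 3, and 6, 8 and 8 without young replicates 1, 2 and 3), against 15. DESeq2 called 23. Leave-one-out log2 fold changes ran from -0.013 to 0.15 for miR-29a-3p, -0.16 to 0.25 for miR-29c-3p, -0.38 to 0.27 for miR-29c-5p, -0.33 to 0.19 and -0.36 to 0.16 for miR-29b-3p at Mir29b-1 and Mir29b-2, and -0.36 to 0.17 for its sum. That of miR-29a-5p ran from 0.023 to 0.24. The fibrosis list had 2 to 5 calls (5 without old replicate 1, against 3) and a median of -0.23 to 0.030.

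Leave-one-out differences, old minus young, ran from -0.23 to 0.21 for the log2 ratio of miR-29c-3p to miR-29a-3p, and, in percentage points, from -0.0488 to 0.0899 for the 5p arm of miR-29a, -8.50 to 6.99 for that of miR-29c, -0.16 to 2.05, -1.88 to 0.096 and -0.176 to 0.219 for the shares of miR-29a-3p, miR-29b-3p and miR-29c-3p in the 3p sum. They ran from -0.45 to -0.012 and from -0.30 to -0.037 for the log2 ratios of miR-29b-3p to miR-29a-3p and to miR-29c-3p, and from -3.82 to -0.638 percentage points for the miR-29b 5p arms. The 3p share of counts differed by 0.0213 percentage points (0.00402 to 0.0421 with 1 library left out), and by -0.0334 without miR-21a-5p. The miR-29b 5p difference of -2.37 was 1.84 for miR-29b-2-5p with its own copy. The causes were not tested.

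The labels do not say whether the replicate numbers pair the libraries. Same-numbered libraries deviated from their group means with correlations of -0.13, 0.02 and -0.15, against -0.089 to 0.23 for differently numbered ones. With 3 libraries a group, these correlations cannot decide whether a pairing exists. With a replicate block 6 loci passed and none of the miR-29 family (miR-29b-1-5p -1.20, adjusted p = 0.164; miR-29b-3p summed -0.12). miR-29b-1-5p rested on 10 to 51 counts a library, which limits its precision.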
